A study of Mus musculus with 24 samples.

Results

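The genes described here make cholesterol or handle it: 30 genes, out of the 55335 listed in each count file, picked by gene symbol, and all 30 were found. They comprise 18 enzymes of the synthesis route, 5 genes of the SREBP sensor, 3 genes of intracellular sterol transport, the sterol acyltransferases *Soat1* and *Soat2*, and the efflux transporters *Abca1* and *Abcg1*. Their transcripts were counted by RNA-seq of polyA RNA in 24 libraries of cultured primary mouse osteoblasts (OBs), the cells that secrete bone matrix. The OBs came from parietal bones of pups a few days old that were wild type (WT) or heterozygous for G610C (Het), a glycine to cysteine substitution in *Col1a2* that is a mouse model of osteogenesis imperfecta, on the C57BL/6J background. Both genotypes received the same osteogenic medium with fetal bovine serum and ascorbic acid 2-phosphate, and 4 libraries of each genotype were made at each of days 8, 14 and 21 after seeding. Cells of several pups of 1 genotype were pooled before plating, so the libraries of a group are not independent animals, and p-values measure the spread between libraries, which may be technical. The paper describes separate experiments with cells from different litters, which differed in plating density and in oxygen during early culture. The sample labels do not say which library came from which experiment. The serum is itself a source of lipoprotein cholesterol, and it was present in all 6 groups.

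Cholesterol is built from acetyl-CoA through mevalonate and farnesyl pyrophosphate, then through squalene and lanosterol to a series of sterols that end in cholesterol. The SREBP transcription factors switch these enzymes on as a group. They wait in the endoplasmic reticulum (ER) bound to SCAP, and when sterols are plentiful INSIG proteins hold SCAP there, so the enzyme genes, *Insig1* and *Stard4* fall together. The opposite limb answers oxysterols: LXR receptors raise the exporters ABCA1 and ABCG1, while SOAT enzymes esterify surplus cholesterol for storage. SOAT1 is the general form of most tissues and SOAT2 is best known from intestine and liver.

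Levels are given as RQ, the count of a gene per 1000 counts of the housekeeping geometric mean of that library, taken over *Actb*, *Actg1*, *Sdha* and *Mrfap1*. Libraries held between 17140202 and 59734231 counts, and the 6 libraries numbered replicate 1 held 17140202 to 25825762, against 28159342 to 59734231 in the rest. All 8 osteoblast markers examined were detected in every group, and the summed RQ of these markers ranged from 32286 in the lowest day 8 library to 339790 in the highest day 21 library. In Het, 5 of the 8 were lower than in WT at days 14 and 21 (edgeR quasi-likelihood test, as throughout). The cultures also held macrophage transcripts. The summed RQ of 12 macrophage markers was 249.55 to 493.47 in WT and 415.91 to 1098.5 in Het at day 8, 1544.5 to 4968 and 3431 to 7895 at day 14, and 6622.5 to 7668.5 and 8764 to 19437 at day 21, and 11 of the 12 were higher in Het at days 14 and 21. Adipocyte markers were counted too. Over 7 genes, the median of their summed RQ at day 21 was lower in Het (6.45) than in WT (30.1), but the libraries overlapped, with ranges of 2.59 to 58.3 and 21.8 to 49.3. Their part in any member was not tested. In bulk RNA, fewer cells of a type and less RNA per cell cannot be told apart.

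Per kilobase of gene model, and averaged over the 24 libraries, *Npc2* was the most abundant member with an RQ per kilobase of 145 ± 32.4 (SD), followed by *Hmgcs1* (95.9 ± 18.8), *Cyp51* (62.5 ± 13.3), *Fdps* (56.0 ± 13.2) and *Insig1* (53.5 ± 9.61). At day 8 alone *Hmgcs1* and *Npc2* differed by less than their spread (mean 110.1 ± 13.9 and 105 ± 7.65, n = 8). From *Cyp51* downwards most neighbours in this order differed by less than their spread over the libraries. The lowest over all libraries were *Tm7sf2* (6.60 ± 1.06), *Soat2* (2.08 ± 2.53) and *Abcg1* (0.952 ± 0.918). For the last 2 the SD was close to or above the mean, and in WT at days 14 and 21 *Soat2* was at 0.670 ± 0.202 and *Abcg1* at 0.919 ± 0.591.

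**Figure D1:**
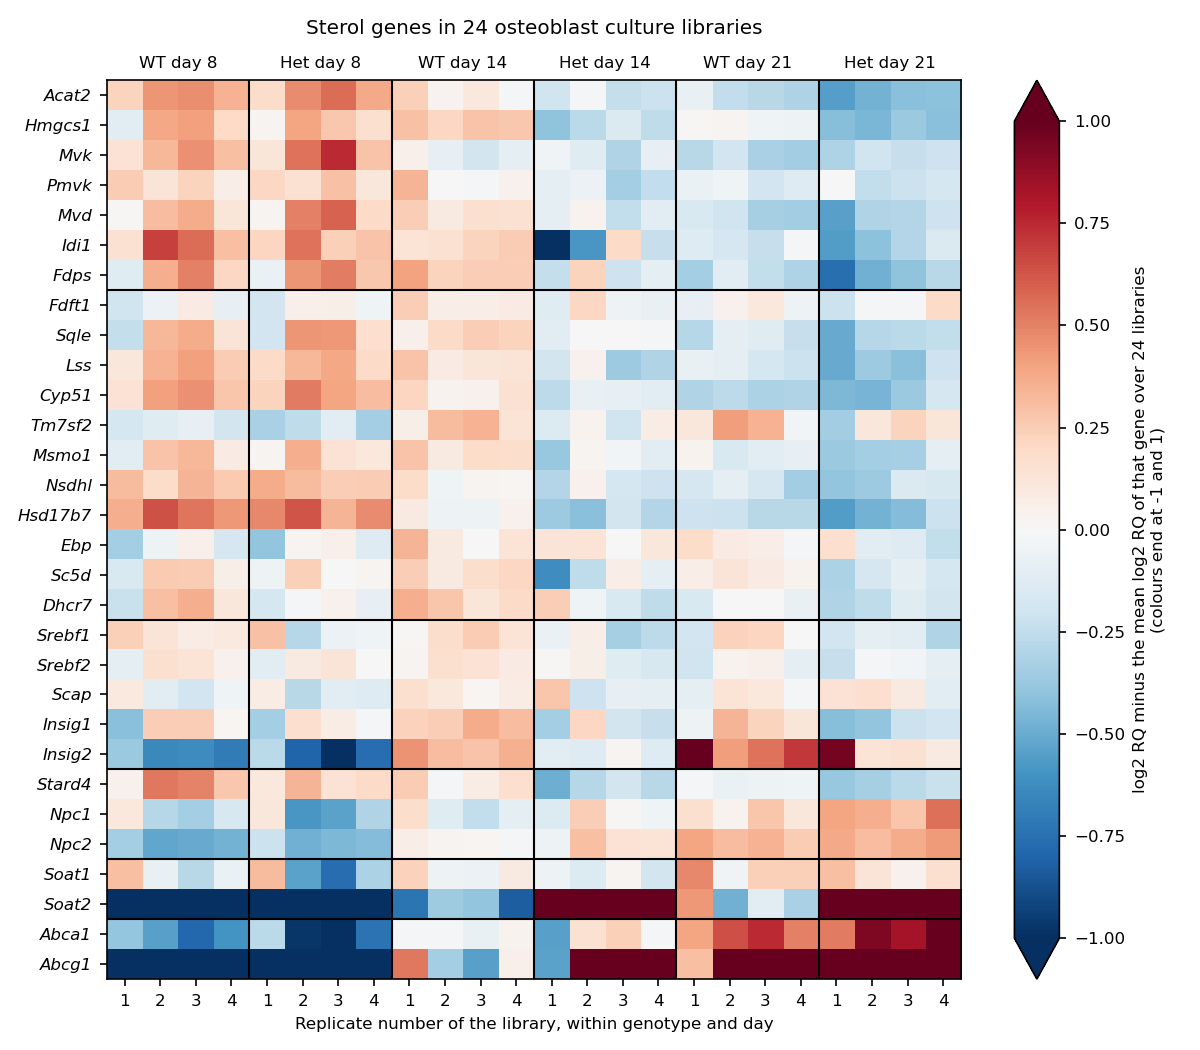
Log2 RQ of each of the 30 members (rows, grouped by role) in each of the 24 libraries (columns, grouped by genotype and day, numbered by replicate), minus the mean of that gene over all libraries. Colours end at -1 and 1. Most synthesis enzymes are highest at day 8 and lowest in Het at day 21, whereas Soat2 and Abcg1 are lowest at day 8.

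The first question was whether mature Het cultures differ from WT in these genes. At days 14 and 21 together (8 libraries against 8, day as a covariate, adjusted p under 0.05), 13 of the 30 members were lower in Het, 2 were higher (*Soat2* and *Abcg1*), and 15 did not pass the test. Among all 19839 genes tested, 8.88% were lower and 7.26% higher. The members' median log2 fold change was -0.17 and that of all genes -0.05, and 25 of the 30 members lay below 0. The count depended on the scale: with TMM scaling, 9 members were lower and 3 higher, beside 7.48% and 12.4% of all genes. All 13 lower members had a Het to WT ratio of mean RQ below 1 both within replicate 1 and within replicates 2 to 4, and both higher members a ratio above 1. The calls were made from these same libraries, so this describes them and is no separate check. In replicate 1 the ratio was near 1 for *Srebf1* (0.970) and 0.914 for *Dhcr7*. The library sets without overlap were few: for *Hmgcs1* and *Stard4* the highest of 8 Het values lay under the lowest of 8 WT values (0.524% of genes tested) and *Soat2* was the reverse (0.398%). The other 11 lower members lost their call when at least 1 of replicates 2, 3 and 4 was left out, and the count of lower members was 14, 5, 3 and 3 without replicate 1, 2, 3 and 4, beside 22.2%, 0.9%, 0.68% and 0.318% of all genes. Osteoblast markers were lower and macrophage markers higher in the same comparison, and their part in these counts was not tested.

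With each day taken alone (4 libraries against 4, spread pooled over all 24), day 14 gave 4 lower members (*Hmgcs1*, *Stard4*, *Lss* and *Hsd17b7*) and 1 higher (*Soat2*), against backgrounds of 1.51% and 1.93%. In the fit with the replicate number as a block the day 14 counts were 10 lower and 2 higher (5.34% and 4.37% of all genes). Without overlap between genotypes, 14 members were lower and 1 was higher at day 14 (background 8.24% and 2.17%), and 5 were lower and 1 was higher at day 21 (4.51% and 7.16%). Day 21 gave *Hmgcs1* as lower (0.259% of genes) and *Soat2* as higher (0.651%). The block fit gave 2 lower at day 21 (2.34%). Without replicate 2, 3 or 4 no member was lower on either day, and without replicate 1 the counts were 15 at day 14 and 7 at day 21, where 14.8% and 13.6% of all genes were lower. At day 8 no member was called, nor was any of the 18222 genes tested (0%), although 2 members and 1817 genes had an unadjusted p under 0.05, and DESeq2 called 0 members but 191 genes higher and 240 lower. No member was without overlap at day 8 (1.19% of genes higher, 3.61% lower). Without replicate 1, 1 member was higher and 2 were lower at day 8, smaller shares than the 4.55% and 14.2% of all genes. The test of whether the genotype difference at days 14 and 21 differed from that at day 8 called *Soat2* alone among the members (0.166% of genes higher, 0.00489% lower). Without replicate 1 it called 3 members higher and 1 lower (3.93% and 0.794% of all genes), and without replicate 2, 3 or 4 it called none. With all libraries none of the 13 lower members passed, so a difference between days was not shown for them.

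**Figure D2:**
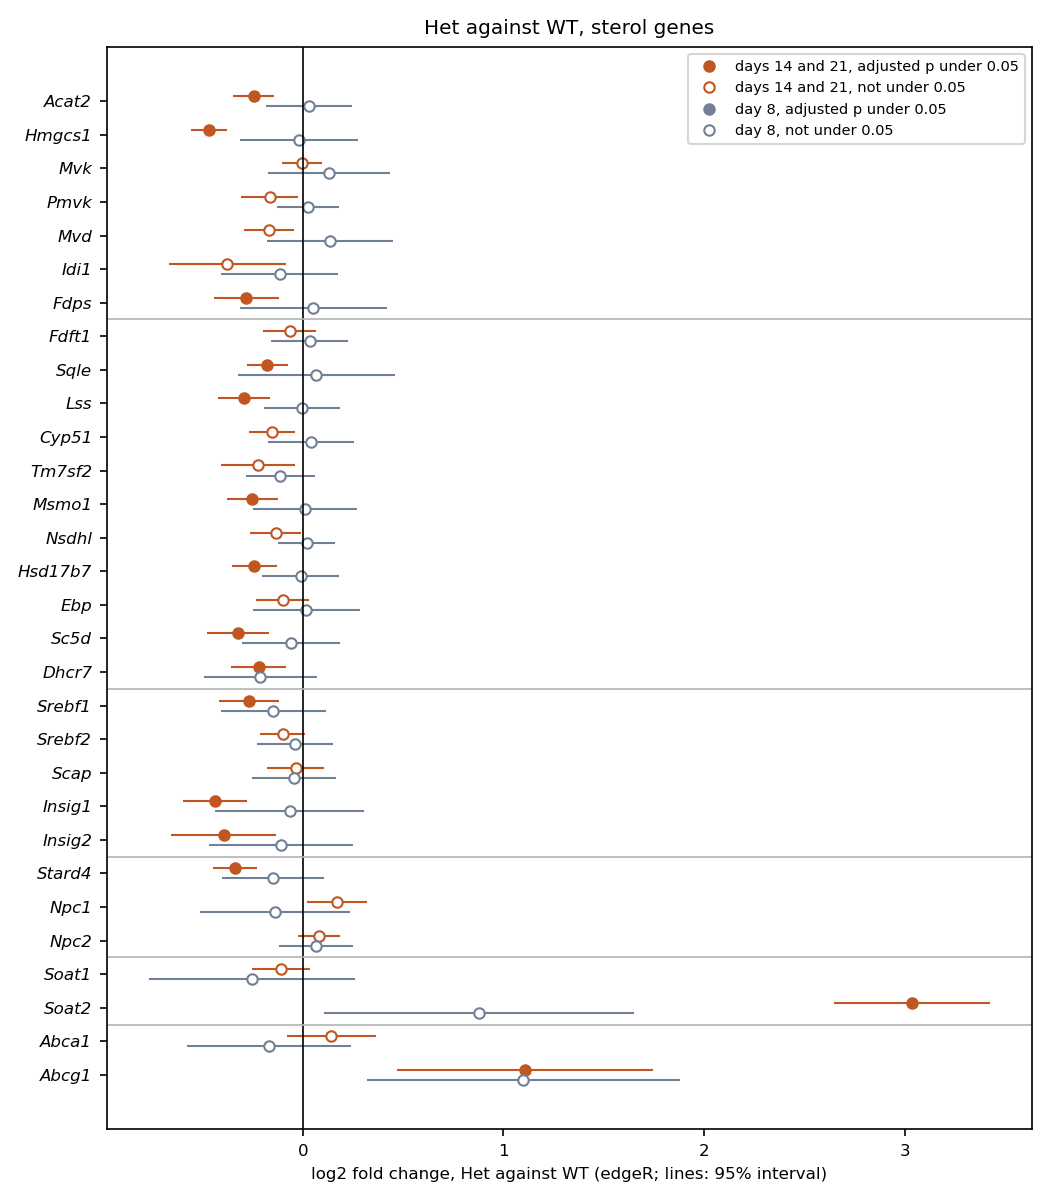
Log2 fold change of Het against WT for the 30 members, at days 14 and 21 (orange) and at day 8 (grey), with 95% intervals and filled points where the adjusted p was under 0.05. All 18 later points of the synthesis enzymes lie left of 0, as far as -0.47, while Soat2 lies far to the right at 3.04. Among all 19839 genes tested at these days, 11768 were below 0.

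The second question was how the genes change as the cultures mature. Against day 8, the later days gave 14 members lower and 8 higher, with 17.4% and 40.9% of the 20434 genes tested as the background. The median of all genes was itself 0.16 above 0 on the housekeeping scale, and it was -0.02 with TMM scaling, under which 18 members were lower and 6 higher and 32.8% of all genes were lower and 27.4% higher. From day 14 to day 21, 11 members were lower and 6 higher (background 5.94% and 13.3%). Without replicate 2 these counts were 6 and 3 (3.35% and 8.22% of all genes), and without replicate 3 or 4 the higher count was 2 (6.03% and 6.52%). Taken over the 18 synthesis enzymes, the median log2 fold change was -0.37 for the later days against day 8 and -0.19 for day 21 against day 14. The stage and genotype comparisons share libraries, so their values are given side by side below and not related to each other. All 8 cell cycle genes examined were also lower at the later days in both stage comparisons, and their part in the members' change was not tested.

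**Figure D3:**
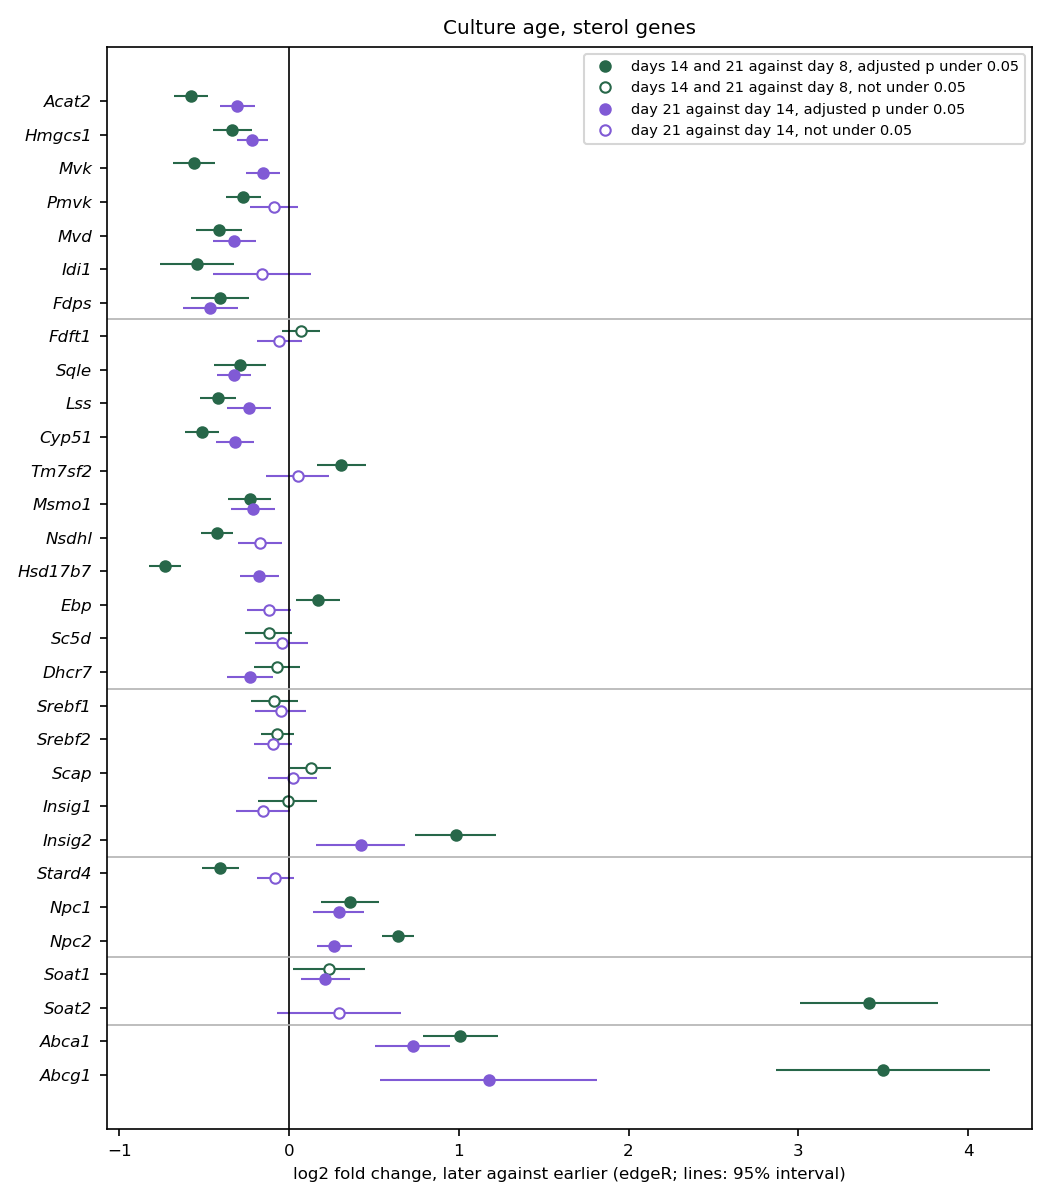
Log2 fold change of the later days against day 8 (green) and of day 21 against day 14 (purple) for the 30 members, both genotypes averaged, with 95% intervals and filled points where the adjusted p was under 0.05. Synthesis enzymes lie mostly left of 0, down to -0.73 for Hsd17b7, and Insig2, Npc1, Npc2, Soat2, Abca1 and Abcg1 lie to the right, up to 3.50 for Abcg1.

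The upper route to farnesyl pyrophosphate is covered by 7 members, and *Hmgcs1*, the cytosolic HMG-CoA synthase that commits acetyl units to mevalonate, had the largest difference of the 7 over days 14 and 21. RQ values of *Hmgcs1* in WT libraries were 401, 566, 575 and 495 at day 8 and 530.5, 499.6, 527 and 521 at day 14. Those of Het libraries were 439, 568, 520.4 and 482 at day 8 and 327, 359, 389.9 and 363 at day 14. The genotypes overlapped at day 8 and not at all at day 14. At day 21 the values were 436, 441, 420.4 and 418 in WT and 322, 314, 334 and 323 in Het. Every Het library was again below every WT library. Over days 14 and 21 the log2 fold change of Het against WT was -0.47 ± 0.04 (SE), adjusted p = 1.14e-05, against -0.02 ± 0.13 (SE), adjusted p = 0.984 at day 8. The Het to WT ratio of mean RQ at days 14 and 21 was 0.672 in replicate 1 and 0.737 in replicates 2 to 4.

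The bases before the start of *Hmgcs1* are shown with those of *Sc5d* and *Abca1*, as examples with and without the letters, because SREBP acts together with factors that read the letters CCAAT. Each line gives the 250 bases before the RefSeq transcript start (GRCm38.p6), 5′ to 3′ on the gene's strand. Capitals mark CCAAT or its reverse complement ATTGG, and in *Hmgcs1* also TCACCCCAC, a match to the sterol element letters TCACNCCAC.
Hmgcs1 chr13:119690101-119690350 (plus strand): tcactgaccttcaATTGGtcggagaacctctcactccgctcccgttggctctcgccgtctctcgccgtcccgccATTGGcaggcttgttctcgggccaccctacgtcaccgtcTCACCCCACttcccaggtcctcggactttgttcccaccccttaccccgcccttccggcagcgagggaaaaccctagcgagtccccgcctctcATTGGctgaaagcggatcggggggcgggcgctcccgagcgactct
Sc5d chr9:42264301-42264550 (minus strand): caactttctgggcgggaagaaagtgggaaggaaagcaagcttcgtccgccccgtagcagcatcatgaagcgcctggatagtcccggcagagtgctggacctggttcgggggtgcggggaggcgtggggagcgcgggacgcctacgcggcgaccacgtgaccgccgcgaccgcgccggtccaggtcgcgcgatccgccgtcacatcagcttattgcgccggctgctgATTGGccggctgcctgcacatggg
Abca1 chr4:53159896-53160145 (minus strand): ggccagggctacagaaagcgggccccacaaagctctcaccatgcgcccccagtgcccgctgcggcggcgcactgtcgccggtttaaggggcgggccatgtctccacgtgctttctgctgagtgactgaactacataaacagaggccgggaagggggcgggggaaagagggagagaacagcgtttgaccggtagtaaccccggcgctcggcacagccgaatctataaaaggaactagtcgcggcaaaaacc
CCAAT was found on either strand in 20 of the 23 members with a RefSeq entry, 87.0%, against 37.5% of all 27025 genes in the table. It was in 14 of 15 synthesis enzymes, and *Acat2*, *Scap* and *Abca1* were without it. By call, it was in 9 of the 10 genes lower in Het (not in *Acat2*) and in 11 of the 13 that did not pass. In *Hmgcs1* it lay 237, 176 and 45 bases before the start, and in *Sc5d* 24 bases before. TCACNCCAC was found in *Hmgcs1* alone (1 of 23, against 1.22% of all genes). CCAAT is short and common, and a match describes the letters only. The 27025 genes were not limited to genes tested in these cultures, whereas all 23 members were tested, so the shares compare unlike sets.

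*Acat2*, which makes the acetoacetyl-CoA that HMGCS1 uses, was also lower in Het (-0.25 ± 0.05 (SE), adjusted p = 0.00527), and it was lower in Het in all 8 pairs of libraries with the same replicate number at days 14 and 21. Its RQ was 79.9 to 94.7 in WT and 77.8 to 101 in Het at day 8, 67.7 to 80.7 in WT and 58.2 to 67.5 in Het at day 14 and 55.4 to 65.1 in WT and 46.9 to 51.5 in Het at day 21. *Fdps*, farnesyl pyrophosphate synthase, was the third of the 7 to pass (-0.28 ± 0.08 (SE), adjusted p = 0.0213). Its call was lost with TMM, DESeq2 and total count scaling. The kinases *Mvk* and *Pmvk*, the decarboxylase *Mvd* and the isomerase *Idi1* did not pass, with log2 fold changes of *Mvk* -0.00 (adjusted p = 0.975), *Pmvk* -0.16 (adjusted p = 0.101), *Mvd* -0.17 (adjusted p = 0.0622) and *Idi1* -0.38 (adjusted p = 0.0711). The DESeq2 Wald test called *Mvd*, at -0.17 (adjusted p = 0.0383), and *Idi1*, at -0.38 (adjusted p = 0.037). In the fit with the replicate number as a block, *Idi1* and *Pmvk* were called, at -0.40 (adjusted p = 0.0299) and -0.16 (adjusted p = 0.0477), and *Idi1* was lower in Het in 8 of 8 pairs. Its RQ in Het at day 14 was 15.4, 23.1, 39.4 and 29.4, with replicate 1 far below the rest, against 38.0, 38.4, 40.4 and 41.2 in WT.

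All 7 upper route genes were lower at the later days than at day 8 (17.4% of all genes), with log2 fold changes from -0.58 (*Acat2*) to -0.27 (*Pmvk*) and adjusted p from 1.11e-09 to 0.000199. *Mvk* was without overlap between the stages, as were 2.7% of all genes in that direction. Its mean RQ fell from 91.1 ± 8.02 (SD, n = 4) in WT at day 8 to 60.2 ± 2.95 at day 21, and in Het from 99.7 ± 19.0 to 62.3 ± 2.09. From day 14 to day 21, 5 of the 7 were lower again (5.94% of all genes), led by *Fdps* (-0.47 ± 0.08 (SE), adjusted p = 0.000677).

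The route from squalene to cholesterol has 11 members. All 11 lay below 0 in Het at days 14 and 21, as did 11768 of all 19839 genes tested. Lower calls went to 8.88% of all genes and to 6 of the 11. These were *Sc5d*, the lathosterol desaturase (-0.32 ± 0.07 (SE), adjusted p = 0.00952), *Lss*, which folds squalene epoxide into lanosterol (-0.29 ± 0.06 (SE), adjusted p = 0.00678), the C4 demethylase *Msmo1* (-0.25 ± 0.06 (SE), adjusted p = 0.0125), the ketoreductase *Hsd17b7* (-0.24 ± 0.05 (SE), adjusted p = 0.00862), *Dhcr7*, which makes cholesterol itself in the last step of a branch (-0.22 ± 0.06 (SE), adjusted p = 0.0303), and the squalene epoxidase *Sqle* (-0.18 ± 0.05 (SE), adjusted p = 0.0213). The other 5, *Fdft1*, *Cyp51*, *Tm7sf2*, *Nsdhl* and *Ebp*, ranged from -0.22 for *Tm7sf2* to -0.07 for *Fdft1* and did not pass. The replicate block called *Tm7sf2*, at -0.22 (adjusted p = 0.0417), and the DESeq2 Wald test called *Cyp51*, at -0.15 (adjusted p = 0.0258). With total count scaling 2 of the 6, *Sc5d* and *Lss*, were still called, while *Sqle* and *Dhcr7* lost their call with all 3 other scalings and *Msmo1* and *Hsd17b7* with total count. *Dhcr7* also lost its call on leaving out any of 8 of the 16 single libraries (highest adjusted p = 0.0625). At day 8 the same 11 ranged from -0.21 (*Dhcr7*) to 0.07 (*Sqle*), with 5 below 0, against 12599 of all 18222 genes.

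*Lss* gives the pattern of the called genes at day 14. For *Lss*, WT cultures had an RQ of 104, 123, 128 and 115 at day 8, 118, 102, 105 and 106 at day 14 and 91.9, 90.8, 85.7 and 83.2 at day 21. Het cultures had 110.4, 122, 127 and 111 at day 8, 84.9, 99.6, 75.3 and 78.5 at day 14 and 68.3, 75.0, 72.3 and 83.7 at day 21. The genotypes did not overlap at day 14, and they overlapped at days 8 and 21. *Sc5d* separated them at days 14 and 21. WT values of *Sc5d* (RQ) were 165, 148, 158 and 160.4 at day 14 and 146, 152, 147 and 143 at day 21. Het values were 90.6, 117, 146 and 129.9 at day 14 and 112, 124, 131 and 123 at day 21. The lowest value was Het replicate 1 at day 14, well below the other Het libraries. *Msmo1* in Het at day 21 was 128, 130.2, 131 and 155, with replicate 4 apart from the rest and close to the WT values of 169, 149, 153 and 156.

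With culture age, 6 of the 11 fell (17.4% of all genes), led by *Hsd17b7* (-0.73 ± 0.05 (SE), adjusted p = 1.8e-11) and *Cyp51*, the lanosterol demethylase (-0.52 ± 0.05 (SE), adjusted p = 7.15e-09). The RQ of *Hsd17b7* was 83.3 to 101 in WT and 82.2 to 100.3 in Het at day 8, 62.4 to 68.8 in WT and 48.4 to 57.1 in Het at day 14 and 53.4 to 56.1 in WT and 44.0 to 55.9 in Het at day 21, and no later library reached the lowest day 8 value. *Nsdhl*, *Lss*, *Sqle* and *Msmo1* were lower too, at -0.43, -0.42, -0.29 and -0.23 on the log2 scale. *Tm7sf2*, a C14 sterol reductase, and *Ebp*, the sterol isomerase, were the exceptions on the housekeeping scale, higher by 0.31 and 0.17. Neither passed with TMM scaling, where *Ebp* was at -0.03, and the median of all genes stood at 0.16 on the housekeeping scale. From day 14 to day 21, *Sqle*, *Cyp51*, *Lss*, *Dhcr7*, *Msmo1* and *Hsd17b7* were lower, with log2 fold changes from -0.32 to -0.18.

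Over the 18 enzymes together, the number lower in Het within a pair of same-numbered libraries was 5, 6, 11 and 8 of 18 at day 8 for replicates 1 to 4. It was 18, 15, 17 and 17 at day 14, and 17, 18, 15 and 9 at day 21. Day 8 pairs were thus split, day 14 pairs were nearly uniform, and replicate 4 at day 21 was split like day 8. The 18 enzymes are switched on as a group, so they are not separate observations, and shares of all genes within a pair were not computed. In the fits of each day, 12599 of 18222 genes lay below 0 at day 8, 13037 of 20434 at day 14 and 10655 of 20434 at day 21. The geometric mean of the 18, set to 1 as the average of WT day 8, was 1.00 ± 0.103 (SD, n = 4) in WT and 1.00 ± 0.0898 in Het at day 8. At day 14 it was 0.965 ± 0.0386 and 0.791 ± 0.0401, and at day 21 0.806 ± 0.0249 and 0.723 ± 0.0436. The Het mean at day 14 was close to the WT mean at day 21. Het replicate 1 at day 21 was the lowest of the 24 libraries for 10 of the 18 genes.

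All 5 sensor genes lay below 0 in Het at days 14 and 21, as did 11768 of all 19839 genes tested, and 3 passed. Both INSIG genes and *Srebf1* were called lower. *Srebf2*, which encodes the SREBP most tied to cholesterol, and *Scap*, its escort, did not pass, at -0.10 (adjusted p = 0.212) and -0.04 (adjusted p = 0.786). *Srebf2* was still lower in Het in 8 of 8 same-numbered pairs at these days. *Insig1*, itself an SREBP target, was lower in Het with a log2 fold change of -0.44 ± 0.08 (SE), adjusted p = 0.00219. RQ values of *Insig1* in WT libraries were 122, 194, 194 and 165 at day 8, 191, 193, 210.2 and 201 at day 14 and 157, 206, 190.3 and 177 at day 21. Those of Het libraries were 129, 183, 171 and 161 at day 8, 129, 188, 143 and 139 at day 14 and 121, 124, 141 and 143 at day 21. The genotypes did not overlap at day 14 or at day 21 and overlapped at day 8, and a single Het library at day 14, replicate 2, came close to WT. The Het to WT ratio at days 14 and 21 was 0.718 in replicate 1 and 0.744 in replicates 2 to 4.

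*Insig2*, whose product does the same work but whose transcript is not raised by SREBP, was lower in Het, with a log2 fold change of -0.39 ± 0.12 (SE), adjusted p = 0.0403. The call was lost with no filter, at -0.39 (adjusted p = 0.0508), without replicate 2, 3 or 4, and on leaving out any of 11 of the 16 single libraries (highest adjusted p = 0.0845). For *Insig2*, WT cultures had an RQ of 110, 90.7, 91.8 and 87.5 at day 8, 194, 176, 173 and 182 at day 14 and 318, 190.1, 207 and 232 at day 21. Het cultures had 118, 81.5, 69.3 and 84.0 at day 8, 131, 130.1, 145 and 130.1 at day 14 and 275, 157, 158 and 151 at day 21. At day 21 replicate 1 was the highest library of each genotype, and Het replicate 1 exceeded every WT library except its own number. Over time *Insig2* moved opposite to most of the enzymes, with 0.98 ± 0.12 (SE), adjusted p = 2.2e-07 for the later days and no overlap with day 8 (background 11% in that direction), and 0.42 ± 0.12 (SE), adjusted p = 0.0244 from day 14 to day 21. *Insig1* did not pass in either stage comparison (-0.01 and -0.15). The count ratio of *Insig1* to *Insig2* differed by -0.04 on the log2 scale between Het and WT (two-sided exact permutation test, 8 against 8 libraries, p = 0.854, adjusted over 4 ratios 0.854).

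*Srebf1*, better known for fatty acid synthesis, was lower in Het, with a log2 fold change of -0.27 ± 0.07 (SE), adjusted p = 0.0192, a call lost with TMM, DESeq2 and total count scaling. A ratio within a library needs no scale: *Srebf1* relative to *Srebf2* was 0.892-fold in Het against WT (log2 difference -0.16, exact permutation p = 0.0014, adjusted 0.00187). Replicate 1 showed little of this, with Het to WT ratios of mean RQ at days 14 and 21 of 0.970 for *Srebf1* and 0.985 for *Srebf2*. In replicates 2 to 4 they were 0.793 and 0.916. Exons of *Srebf1* overlap those of another gene, *Rai1*, so reads there may be split. *Srebf1*, *Srebf2* and *Scap* did not pass between stages (-0.09, -0.07 and 0.13 for the later days), and *Scap* turned to -0.17 with total count scaling.

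**Figure D4:**
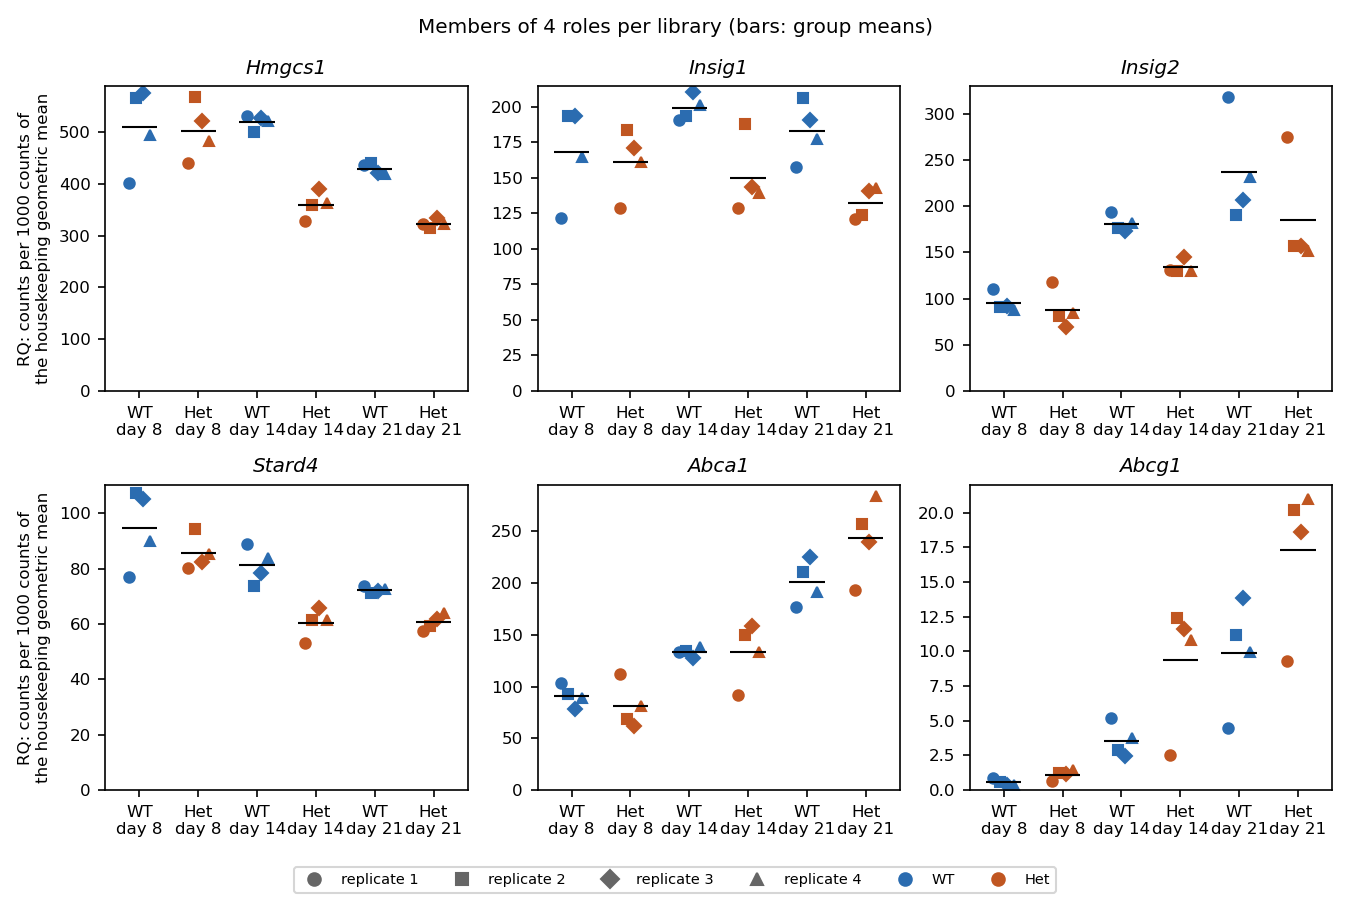
RQ of 6 members in each library (blue, WT; orange, Het; marker shape, replicate number), with bars for group means. Hmgcs1 and Stard4 show every Het library below every WT library at days 14 and 21, Insig2, Abca1 and Abcg1 climb with culture age, and Abcg1 in Het replicate 1 at day 14 sits at 2.49, far below the other 3.

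Of the 3 sterol transport genes, 1 was called on the housekeeping scale. *Stard4*, a soluble carrier that moves cholesterol to the ER and is an SREBP target, was lower in Het, with a log2 fold change of -0.34 ± 0.05 (SE), adjusted p = 0.00109, and together with *Hmgcs1* and *Soat2* it was called under all 10 other settings tried. WT values of *Stard4* (RQ) were 76.9, 108, 105 and 90.0 at day 8, 88.8, 73.9, 78.5 and 83.8 at day 14 and 73.7, 71.4, 72.1 and 72.5 at day 21. Het values were 80.4, 94.5, 82.4 and 85.3 at day 8, 53.3, 61.3, 65.8 and 61.5 at day 14 and 57.5, 59.3, 61.8 and 64.0 at day 21. The genotypes did not overlap at days 14 and 21, and at day 8 they did. The Het to WT ratio was 0.682 in replicate 1 and 0.826 in replicates 2 to 4. *Npc1* and *Npc2*, which release lipoprotein cholesterol from lysosomes, did not pass on the housekeeping scale, at 0.17 (adjusted p = 0.106) and 0.08 (adjusted p = 0.291). *Npc1* was called higher in Het with TMM, 0.23 (adjusted p = 0.0225), DESeq2 size factors, 0.24 (adjusted p = 0.0194), and total count, 0.27 (adjusted p = 0.00929), and without replicate 1, 0.24 (adjusted p = 0.00942). *Npc2* was called with total count, 0.17 (adjusted p = 0.0148).

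With age *Stard4* fell (-0.40 ± 0.05 (SE), adjusted p = 1.14e-06) while *Npc1* and *Npc2* rose (0.36 ± 0.08 (SE), adjusted p = 0.000684 and 0.64 ± 0.05 (SE), adjusted p = 9.41e-11). The RQ of *Npc2* was 535 to 605 in WT and 549 to 659 in Het at day 8, 762 to 804 in WT and 740.2 to 944 in Het at day 14 and 913 to 1006 in WT and 951 to 1029 in Het at day 21, and no later library was as low as any at day 8. *Npc1* did not pass with total count scaling, and its exons overlap those of *Rmc1*. All 12 macrophage markers were also higher at the later days, by a median log2 fold change of 3.75, and their part in the lysosomal genes' rise was not tested.

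*Soat2* gave the largest genotype difference of the 30. It lies at chr15:102150526-102163469, plus strand (mm10), and *Soat1* at chr1:156424525-156474331, minus strand. The counts of *Soat2* in WT were 4, 5, 6 and 11 at day 8, 12, 35, 36 and 29 at day 14 and 26, 32, 32 and 37 at day 21 for replicates 1 to 4. In Het they were 4, 18, 17 and 16, then 59, 223, 298 and 236, then 113, 332, 393 and 303. The gene was thus barely counted in any day 8 library and far above that in mature Het cultures.

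RQ values of *Soat2* in WT libraries were 0.343, 0.183, 0.242 and 0.379 at day 8, 1.10, 1.42, 1.39 and 1.03 at day 14 and 2.46, 1.31, 1.69 and 1.46 at day 21. Those of Het libraries were 0.285, 0.607, 0.626 and 0.517 at day 8, 6.69, 16.6, 10.9 and 10.6 at day 14 and 11.2, 12.8, 15.6 and 11.2 at day 21. At days 14 and 21 the lowest Het value was above the highest WT value, and at day 8 the ranges overlapped. Het was higher by 3.04 ± 0.18 (SE), adjusted p = 1.53e-07, a fold change of 8.21. The day 14 and day 21 estimates were 3.17 ± 0.27 (SE), adjusted p = 6.87e-07 and 2.90 ± 0.27 (SE), adjusted p = 3.9e-06. At day 8 the estimate was 0.88 ± 0.34 (SE), adjusted p = 0.43, resting on at most 18 counts a library. The difference between the later and the day 8 effect was 2.15 ± 0.38 (SE), adjusted p = 0.0205, and that call was lost when replicate 2, 3 or 4 was left out.

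Both genotypes rose with age. Averaged over the genotypes, the later days exceeded day 8 by 3.42 ± 0.20 (SE), adjusted p = 4.51e-12. Mean RQ of *Soat2* went from 0.287 at day 8 to 1.48 later in WT, and from 0.509 to 11.9 in Het. Day 21 did not pass against day 14 (0.29 ± 0.17 (SE), adjusted p = 0.271). For *Soat1*, WT cultures had an RQ of 146, 112, 97.7 and 113 at day 8, 139, 114, 114 and 126 at day 14 and 165, 115, 139.8 and 139 at day 21. Het cultures had 147, 81.5, 69.8 and 95.3 at day 8, 114, 107, 121 and 105 at day 14 and 146, 129.8, 122 and 133 at day 21. The genotype difference of *Soat1* did not pass at -0.11 ± 0.07 (SE), adjusted p = 0.299, with a 95% interval from -0.25 to 0.04, and its stage differences were 0.24 ± 0.10 (SE), adjusted p = 0.0522 and 0.21 ± 0.07 (SE), adjusted p = 0.0367. The *Soat1* values of Het and WT overlapped at every day.

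**Figure D5:**
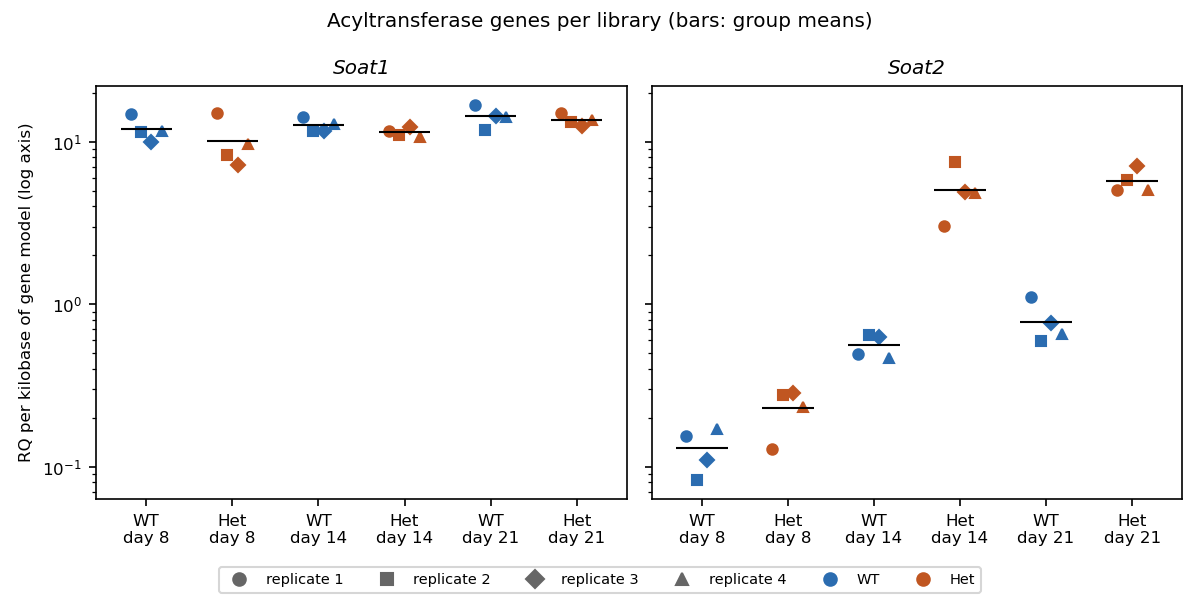
RQ per kilobase of gene model for Soat1 (left) and Soat2 (right) in each library on a shared log axis (blue, WT; orange, Het; marker shape, replicate number), with bars for group means. Soat1 lies at 7.13 to 16.9 over all libraries, whereas Soat2 lies at 0.0825 to 0.283 at day 8 and, at days 14 and 21, at 0.466 to 1.11 in WT and 3.02 to 7.50 in Het.

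Set against *Soat1* in the same library and per kilobase of gene model, *Soat2* stood at 0.720% to 1.48% of *Soat1* in WT and 0.855% to 3.96% in Het at day 8. At day 14 it stood at 3.50% to 5.52% in WT and 25.9% to 68.4% in Het, and at day 21 at 4.63% to 6.59% and 33.9% to 56.6%. *Soat1* transcripts were therefore the more abundant in every library. The *Soat2* to *Soat1* count ratio was 8.54-fold higher in Het at days 14 and 21 (two-sided exact permutation test, p = 0.000155, the smallest that 8 against 8 libraries can give, adjusted 0.00031). With both genotypes pooled, the ratio was 8.74-fold higher at the later days than at day 8 (permutation test with 100000 resamples, p = 4e-05, adjusted 0.00016). By the percentages above, the rise was larger in Het than in WT.

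The Het to WT ratio of *Soat2* was 5.03 in replicate 1 and 9.36 in replicates 2 to 4, so replicate 1 showed the smaller difference. Its neighbour *Igfbp6*, which encodes a binding protein for insulin-like growth factors, lies on the same strand and ends 1014 bases before the *Soat2* start. It was examined after the *Soat2* values were seen. *Igfbp6* was also higher in Het at days 14 and 21 (1.12 ± 0.20, adjusted p = 0.0025). *Csad*, on the other side of *Soat2* and on the minus strand, was examined in the same way. It went the other way and was lower in Het (-0.17 ± 0.05, adjusted p = 0.0359). The RQ of *Igfbp6* at day 14 was 12.4, 16.9, 15.2 and 15.1 in WT and 11.2, 46.8, 31.6 and 33.3 in Het. For day 21 the WT libraries had 17.6, 21.1, 17.1 and 17.9 and the Het libraries 31.7, 40.5, 51.9 and 44.3, so each Het library, replicate 1 included, was above every WT library. In replicate 1 at day 14 *Igfbp6* was no higher in Het than in WT, while *Soat2* was 6.69 in Het and 1.10 in WT. The part of *Igfbp6* reads in the *Soat2* counts was not tested.

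The exporters rose with age, and *Abcg1*, which passes cholesterol to high-density lipoprotein, was also higher in Het. WT values of *Abcg1* (RQ) were 0.857, 0.584, 0.363 and 0.379 at day 8, 5.21, 2.85, 2.47 and 3.73 at day 14 and 4.44, 11.1, 13.9 and 9.93 at day 21. Het values were 0.640, 1.21, 1.14 and 1.42 at day 8, 2.49, 12.4, 11.6 and 10.8 at day 14 and 9.31, 20.2, 18.6 and 21.0 at day 21. Its genotype difference was 1.11 ± 0.30 (SE), adjusted p = 0.0215, at day 8 1.10 ± 0.34 (SE), adjusted p = 0.318, and the call at days 14 and 21 was lost when replicate 2, 3 or 4 was left out. Het was below WT in replicate 1 at days 8 and 14, and the ratio over days 14 and 21 was 1.22 in replicate 1 and 2.15 in replicates 2 to 4. The macrophage markers turned in the same pairs: their summed RQ in replicate 1 was 415.91 in Het and 493.47 in WT at day 8 and 3431 and 4968 at day 14, whereas the other day 14 pairs were 7895 and 1802, 7291 and 1544.5, and 7408 and 2635. *Soat2* was also below WT in Het replicate 1 at day 8, on 4 counts each, but not at day 14. The part of macrophage RNA in *Abcg1* was not tested.

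*Abca1*, the exporter that loads apolipoprotein A-I, did not pass between genotypes (0.14 ± 0.10 (SE), adjusted p = 0.383). Without replicate 1 it was called higher in Het, at 0.23 (adjusted p = 0.00954), as were 17.2% of all genes. RQ values of *Abca1* in WT libraries were 103, 92.5, 78.4 and 88.8 at day 8, 134, 134, 128 and 138 at day 14 and 177, 211, 225 and 191 at day 21. Those of Het libraries were 112, 68.5, 61.7 and 80.9 at day 8, 92.3, 150.1, 159 and 133 at day 14 and 193, 258, 239 and 284 at day 21. Het and WT overlapped at each day. Against day 8 the later days were higher by 1.01 ± 0.11 (SE), adjusted p = 3.98e-08 for *Abca1* and 3.50 ± 0.30 (SE), adjusted p = 2.21e-09 for *Abcg1*, and day 21 exceeded day 14 by 0.73 ± 0.10 (SE), adjusted p = 0.000288 and 1.18 ± 0.30 (SE), adjusted p = 0.0117. *Abca1* did not overlap between days 14 and 21 (1.77% of genes higher without overlap), and no member was lower without overlap there (0.696%). The 12 macrophage markers were all higher in both stage comparisons too, with medians of 3.75 and 1.12.

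Beyond the members, 29 further genes of sterol synthesis, sensing, oxysterol formation and uptake were counted, named here by the size of their change. In Het at days 14 and 21, 5 of the 29 were higher and 2 lower (7.26% and 8.88% of all genes), with a median of -0.08. The higher ones were led by *Ch25h*, cholesterol 25-hydroxylase (0.93 ± 0.25, adjusted p = 0.0197), *Stard5*, a sterol carrier (0.69 ± 0.09, adjusted p = 0.000257) and *Lipa*, the lysosomal cholesteryl ester lipase (0.54 ± 0.13, adjusted p = 0.0108), and the lower ones were *Scarb1*, the HDL receptor (-0.29 ± 0.07, adjusted p = 0.01) and *Vldlr*, a lipoprotein receptor (-0.23 ± 0.07, adjusted p = 0.0417). At the later days against day 8, 13 were higher and 10 lower (40.9% and 17.4% of all genes). The higher ones were led by *Vldlr* (3.30 ± 0.16, adjusted p = 5.73e-13), *Nceh1*, a cholesteryl ester hydrolase (1.27 ± 0.11, adjusted p = 3.16e-09) and *Cyp27a1*, sterol 27-hydroxylase (1.19 ± 0.10, adjusted p = 8.82e-10). Among the lower ones were *Cyp7b1*, an oxysterol hydroxylase (-1.20 ± 0.14, adjusted p = 2.2e-07) and *Aacs*, acetoacetyl-CoA synthetase (-0.70 ± 0.04, adjusted p = 5.63e-12). From day 14 to day 21, 8 were higher and 6 lower (13.3% and 5.94%). *Vldlr* rose with age and was lower in Het. Macrophage markers rose with *Ch25h* and *Lipa* in both comparisons, and their part was not tested.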

How the data were processed

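PolyA RNA of 24 cultures was sequenced (WT and Het, days 8, 14 and 21, 4 libraries each). The authors deposited raw read counts per gene for each library, as whole numbers, with the gene model length in bases (another kind of value, not a measurement). The submitters' processing notes name cutadapt 2.5, STAR, featureCounts 1.6.4 (Subread) and build mm10. The strand setting and the treatment of reads that match several places are not given in the sources used here, so counts of genes with overlapping exons, 10 of the 30 members, are uncertain.

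Members were matched by symbol. The members and gene lists were chosen with earlier results of these data known. All 30 members are named. Of further lists, at most 3 genes in each direction are named, by size of change among those with an adjusted p under 0.05. Counts were tested with edgeR 4.0.16 (R 4.3.3; glmQLFit, glmQLFTest, filterByExpr), scaled by the housekeeping geometric mean instead of the total, with Benjamini-Hochberg adjustment over all genes tested. SE is the absolute log2 fold change divided by the square root of F. Genes with no overlap were those whose lowest library of a group exceeded the highest of the other. Count ratios within a library used a pseudocount of 0.5 and permutation tests (scipy 1.17.1), adjusted over 4 ratios. The depth of 17140202 to 59734231 counts limits the precision mainly for *Soat2* and *Abcg1*.

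Alternatives were TMM, DESeq2 size factor and total count scaling, no filter, the DESeq2 1.42.0 Wald test, a replicate block, each replicate number left out and, chosen after seeing the data, each single library of days 14 and 21 left out. The tests were tested on simulated data with 200 changed genes. Same-numbered WT and Het libraries of a day deviated together (correlation of deviations from group means 0.194 to 0.789, median 0.371, over 12 pairs). Over 36 pairs of different numbers it was -0.611 to 0.436, with a median of -0.07, so the ranges overlap. Deviations from a group mean sum to 0, which by itself lowers the correlation between different numbers. The numbers may therefore pair the genotypes, but this is not settled for each number. The labels do not say what a number marks. Positions are from GENCODE M21, where 29 of the 30 members have the file's ID version, and promoter bases from the RefSeq table of GRCm38.p6, which held 23.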

Additional observations from a re-analysis of the deposited data

Results flagged for a closer look

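Of 180 groups of 4 libraries (30 members, 6 groups), 9 held a library far from the other 3, and chance alone gives about 9. In 6 of the 9 the library was replicate 1. In WT at day 14 this was replicate 1 for *Pmvk* (RQ 65.0, others 51.0 to 53.0), *Fdps* (303.2, others 268.3 to 272.4) and *Fdft1* (214, others 189 to 191), each above the rest. In Het at day 14, replicate 3 was low for *Ebp* (85.3, others 92.2 to 93.2) and high for *Insig2* (145, others 130.1 to 131), and replicate 1 was low for *Abcg1* (2.49, others 10.8 to 12.4). In Het at day 21, replicate 1 was high for *Insig2* (275, others 151 to 158) and replicate 4 high for *Msmo1* (155, others 128 to 131). In Het at day 8, replicate 1 was high for *Npc2* (659, others 549 to 566).

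The Het effect on *Soat2* differed between stages in a direct test of the difference: it was larger at days 14 and 21 than at day 8 by 2.15 on the log2 scale (edgeR, adjusted p = 0.0205). Without replicate 1 it was 2.14 (adjusted p = 0.00976), and the call was lost without replicate 2 (2.28, 0.163), 3 (2.31, 0.429) or 4 (1.91, 1), the second number in each being the adjusted p. The day 8 side of that difference rests on 4 to 18 counts a library.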

How the results depend on the processing

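For Het against WT at days 14 and 21, *Hmgcs1*, *Stard4* and *Soat2* were called in all 10 other settings (3 scalings, no filter, another test, the block and 4 replicate omissions). The calls of *Fdps*, *Sqle*, *Dhcr7* and *Srebf1* were lost with TMM, DESeq2 size factor and total count scaling. Total count scaling gave 4 members higher and 7 lower, beside 16.6% and 5.08% of all genes. At day 14 TMM gave 2 higher and 1 lower (4.61% and 1.66% of all genes), and DESeq2 size factors the same (4.97% and 1.68%). Total count gave 3 and 1 (7.51% and 1.06%), no filter 2 lower (0.246%), and the DESeq2 Wald test 2 and 11 (4.68% and 4.55%). At day 21 TMM, DESeq2 size factors, total count and no filter each gave 0 lower (0.774%, 0.69%, 0.725% and 0.0676% of all genes). The DESeq2 Wald test gave 2 lower (1.88%). That test gave 1 member lower in the difference of the Het effect (0.0617% of all genes). For the later days against day 8 the total count gave 5 higher (21.4% of all genes). In that comparison *Ebp* reversed to -0.027 with TMM and -0.14 with total count, *Fdft1* to -0.23 and *Scap* to -0.17 with total count. The causes were not tested.

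The replicate block, which assumes that the numbers pair the libraries, gave 2 higher and 10 lower at day 14 (4.37% and 5.34% of all genes). At day 21 it gave 2 lower (2.34%). At days 14 and 21 together it gave 2 higher and 16 lower, beside 9.34% and 14.2% of all genes. Without the block those shares were 7.26% and 8.88%. The block did not change the count of 0 members at day 8, where 0.582% of all genes were higher and 0.982% lower.

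Leaving out 1 replicate number gave, for days 14 and 21 together, 1 to 4 members higher and 3 to 14 lower (2 and 13 with all). The shares of all genes were 0.384% to 17.2% and 0.318% to 22.2%. The lowest counts of members came without replicate 2 (5 lower), 3 (3) or 4 (3), the highest without replicate 1. The ranges were 0 to 1 higher and 0 to 2 lower at day 8, 1 to 3 and 0 to 15 at day 14, 1 to 3 and 0 to 7 at day 21, 0 to 3 and 0 to 1 for the difference of the effects, 7 to 9 and 13 to 17 for the later days against day 8, and 2 to 6 and 6 to 9 for day 21 against day 14. In each genotype comparison the highest count came without replicate 1. Leaving out a single library of days 14 and 21 gave 2 to 3 higher and 11 to 14 lower, beside 5.01% to 10.2% and 5.31% to 15.9% of all genes. Depth limits *Soat2* at day 8, with 4 to 18 counts a library.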

Other observations

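Genes of fatty acid synthesis, which share the SREBP factors with the members, were measured as a list of 14, of which 13 could be tested. In Het at days 14 and 21, 6 were lower and 1 higher, with 8.88% and 7.26% of all genes (median -0.23, against -0.05 over all genes). The lower ones were led by *Fads2*, a fatty acid desaturase (-0.43 ± 0.06, adjusted p = 0.000469), *Scd1*, stearoyl-CoA desaturase (-0.39 ± 0.12, adjusted p = 0.0383) and *Lpin1*, a phosphatidate phosphatase (-0.38 ± 0.08, adjusted p = 0.00848), and the higher one was *Mid1ip1*, an activator of acetyl-CoA carboxylase (0.29 ± 0.08, adjusted p = 0.0232). Against day 8, when 17.4% of all genes were lower and 40.9% higher later, the later days gave 5 lower, led by *Elovl6*, a fatty acid elongase (-1.08 ± 0.07, adjusted p = 2.88e-11), *Fasn*, fatty acid synthase (-0.63 ± 0.07, adjusted p = 5.05e-08) and *Elovl5* (-0.62 ± 0.05, adjusted p = 1e-09), and 2 higher, *Lpin1* (0.26 ± 0.09, adjusted p = 0.0209) and *Me1*, malic enzyme (0.14 ± 0.05, adjusted p = 0.0132). *Fads2* (-0.00) and *Scd1* (0.07) did not pass with age. From day 14 to day 21, 5 were lower and 0 higher in the edgeR fit (5.94% and 13.3% of all genes), with 8 at an unadjusted p under 0.05.

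The branches that use farnesyl pyrophosphate for other products than sterols (protein prenylation, dolichol and ubiquinone) were measured as 11 genes. In Het at days 14 and 21 none of the 11 passed (edgeR; 1 had an unadjusted p under 0.05), and their median was -0.02. At the later days 6 were higher and 2 lower than at day 8 (40.9% and 17.4% of all genes), with a median of 0.14, close to the 0.16 of all genes. The higher ones were led by *Ggps1*, geranylgeranyl pyrophosphate synthase (0.29 ± 0.07, adjusted p = 0.00159), and the lower ones were *Pdss1* (-0.39 ± 0.08, adjusted p = 0.000153) and *Pdss2* (-0.24 ± 0.08, adjusted p = 0.0132), which encode the subunits that make the ubiquinone side chain.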
